A study of Mus musculus with 11 samples.

Results

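The miR-322 to miR-450 cluster is a run of 7 miRNA hairpins on mouse chromosome X. Its members were taken as every mature miRNA of the tables named miR-322, miR-503, miR-351, miR-542, miR-450a or miR-450b, with either arm of the hairpin counted. This gave 13 of the 1096 mature miRNAs in the tables. They were chosen by name, with no cut on a measured value, but with earlier results of these data known.

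The cells were mouse spermatogonial progenitor cells (SPCs), the cultured Thy1-positive germ cells of the testis that hold the spermatogonial stem cells. They came from mice labelled C57BL/6 at post natal day 6, and the study's protocol also names the strain B6;129S-Gt(Rosa)26Sor/J. SPCs were kept on mitotically inactivated STO feeder cells, a mouse embryonic fibroblast line. Control SPCs carried the empty lentiviral vector (shVector), and knockdown SPCs carried a vector with 1 shRNA against Mov10, so both groups were transduced with lentivirus. Mov10 is an RNA helicase found with Argonaute proteins. For the small RNA libraries the study's methods mention triplicate samples, and whether these were pooled is not stated in the sources used here. Each group had 1 small RNA library. There is therefore no replicate error, and no difference below was tested against the variation between cultures. Mov10 mRNA is not measured in a small RNA library, so the depletion was not checked here. In a bulk library, fewer cells of a type and less of an miRNA per cell cannot be told apart. The other 9 samples of the series, which are not small RNA libraries, were not analysed here.

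A mature miRNA is cut from 1 arm of a hairpin, the 5p or the 3p arm, and guides Argonaute to mRNAs that pair with its seed, bases 2 to 8. miR-322 and miR-503 belong to the miR-15/16 group, which is known for restraining cyclins and other cell cycle genes, and miR-322 is the mouse counterpart of human miR-424. miR-322 and miR-503 are known to rise in differentiating muscle cells. miR-351 carries the seed of miR-125, the family of the lin-4 miRNA of worms. The miR-542 and miR-450 hairpins follow in the same run, and their targets are less well known.

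Mature sequences were taken from RefSeq by name, and all 13 members matched. They are shown because the seeds sort the members into families, with the seed in capitals. The first group holds the arm of each hairpin with the more reads, plus miR-503-5p, which has few reads but almost the seed of miR-322-5p.

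miR-322-5p: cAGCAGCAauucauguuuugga
miR-503-5p: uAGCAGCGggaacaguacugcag
miR-503-3p: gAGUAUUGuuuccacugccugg
miR-351-5p: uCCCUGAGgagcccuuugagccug
miR-542-3p: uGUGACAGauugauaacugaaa
miR-450a-5p: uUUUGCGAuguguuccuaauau
miR-450b-5p: uUUUGCAGuauguuccugaaua

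The second group holds the remaining arms, again with the seed in capitals.

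miR-322-3p: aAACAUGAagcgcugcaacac
miR-351-3p: gGUCAAGAggcgccugggaac
miR-542-5p: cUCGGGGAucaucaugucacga
miR-450a-1-3p: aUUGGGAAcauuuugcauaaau
miR-450a-2-3p: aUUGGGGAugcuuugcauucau
miR-450b-3p: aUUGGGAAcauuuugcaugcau

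miR-322-5p carries the seed AGCAGCA, miR-503-5p the seed AGCAGCG and miR-351-5p the seed CCCUGAG. Counted from base 1 at the 5′ end, miR-450a-5p and miR-450b-5p, both 22 bases long, differed at 7 positions (G7A, A8G, G10A, A18G, U20A, A21U and U22A, with the base of miR-450a-5p first). G7A and A8G fall inside the seed, so the members of this pair have different seeds. On the opposite arm, miR-450a-1-3p and miR-450b-3p shared the seed UUGGGAA and differed at 2 positions outside it, A19G and A20C. The 3p forms of the miR-450a hairpins differed from each other at 6 positions.

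The hairpin of miR-322 is shown whole, with both mature arms in capitals, because it is the hairpin whose arms moved apart below.

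Mir322: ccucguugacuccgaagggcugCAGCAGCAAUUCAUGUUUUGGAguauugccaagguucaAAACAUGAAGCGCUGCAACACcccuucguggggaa

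In GRCm38.p6 all 7 hairpins lie on the minus strand of chromosome X, in the order Mir322, Mir503, Mir351, Mir542, Mir450-2, Mir450-1 and Mir450b. Mir322 runs from 53054255 to 53054349, and Mir450b, the last, from 53047997 to 53048078. From the start of miR-322-5p, the 5p forms of the next hairpins start 278 bp (miR-503), 989 bp (miR-351), 4853 bp (miR-542), 5967 and 6100 bp (the miR-450a hairpins) and 6262 bp (miR-450b) further along the strand. The run thus has an upstream group of 3 hairpins and a downstream group of 4, with 3864 bp between the starts of miR-351-5p and miR-542-5p. In RefSeq the mature forms of the upstream group lie in an exon (53053112 to 53055490) of the long noncoding RNA gene C430049B03Rik (53053112 to 53057190), whereas the downstream hairpins lie in no other gene. GENCODE vM21 has a shorter C430049B03Rik (53055046 to 53057190) and puts none of the 7 hairpins inside another gene. Neither annotation has a transcript over the whole run, and whether the hairpins share 1 transcript in SPCs was not tested. The identical miR-450a-5p of Mir450-2 and Mir450-1 is a single entry in the tables, so its reads cannot be divided between the hairpins.

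The members differed in level by several orders of magnitude. Levels are in TPM, which is here the number of reads per 1000000 reads of the library total, with no length term. The totals were 10518277 reads in the control and 3194363 reads in the knockdown, of which 91.5% and 87.5% were on miRNAs. The knockdown library was thus the shallower one. 1 read counted for 0.0951 TPM in the control and for 0.313 TPM in the knockdown, and the detection limit, set at 3 reads, came to 0.285 and 0.939 TPM. Intervals of levels and shares are 95% Wilson intervals and cover counting error only.

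miR-351-5p was the highest member in both libraries, with 21753 control reads and 5953 knockdown reads, or 2068 and 1864 TPM. It ranked 55th among all miRNAs in the control and 52nd in the knockdown. miR-322-5p was next, with 8516 reads (809.6 TPM, interval 792.6 to 827) in the control and 3916 reads (1226 TPM, interval 1188 to 1265) in the knockdown. These intervals do not overlap, and the rank of miR-322-5p went from 80th to 65th. miR-322-3p had 2173 and 588 reads, or 207 TPM (198 to 215) and 184 TPM (170 to 199.6 TPM). miR-542-3p had 1635 and 662 reads, or 155 and 207 TPM, and so was below miR-322-3p in the control and above it in the knockdown.

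The miR-450 members were lower still. miR-450b-5p had 908 and 385 reads, or 86.3 and 121 TPM. miR-450a-5p had 561 and 254 reads, or 53.3 and 79.5 TPM, although it comes from a pair of hairpins and miR-450b-5p from 1. In the control, 1.62 reads of miR-450b-5p were counted per read of miR-450a-5p (exact 95% interval 1.46 to 1.80), and 1.52 in the knockdown (1.29 to 1.78), so this pair kept its order in both libraries.

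The other 7 members had fewer than 100 reads in either library. miR-503-3p had 63 and 20 reads (5.99 and 6.26 TPM), and miR-542-5p had 60 and 16 reads (5.70 and 5.01 TPM). miR-351-3p had 37 and 4 reads, miR-503-5p 22 and 10 reads, and miR-450b-3p 13 and 10 reads. miR-450a-1-3p had 6 and 2 reads, and miR-450a-2-3p had 0 reads in the control, which allows up to 0.285 TPM, and 1 read in the knockdown. The last 2 were below the minimum of 1.5 TPM in both libraries and get no fold change here.

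miR-503 stood apart from its neighbours by its low level. miR-503-5p starts 278 bp from miR-322-5p, yet 387 reads of miR-322-5p were counted per read of miR-503-5p in the control (exact 95% interval 256 to 618) and 392 in the knockdown (213 to 817). In the upstream group the lowest hairpin thus lay between the highest pair. Its 3p form had more reads than miR-503-5p, the form with the miR-15/16-like seed, in both libraries, although in the knockdown the interval of the 5p share, given with the arms, reached past an even split.

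**Figure D1:**
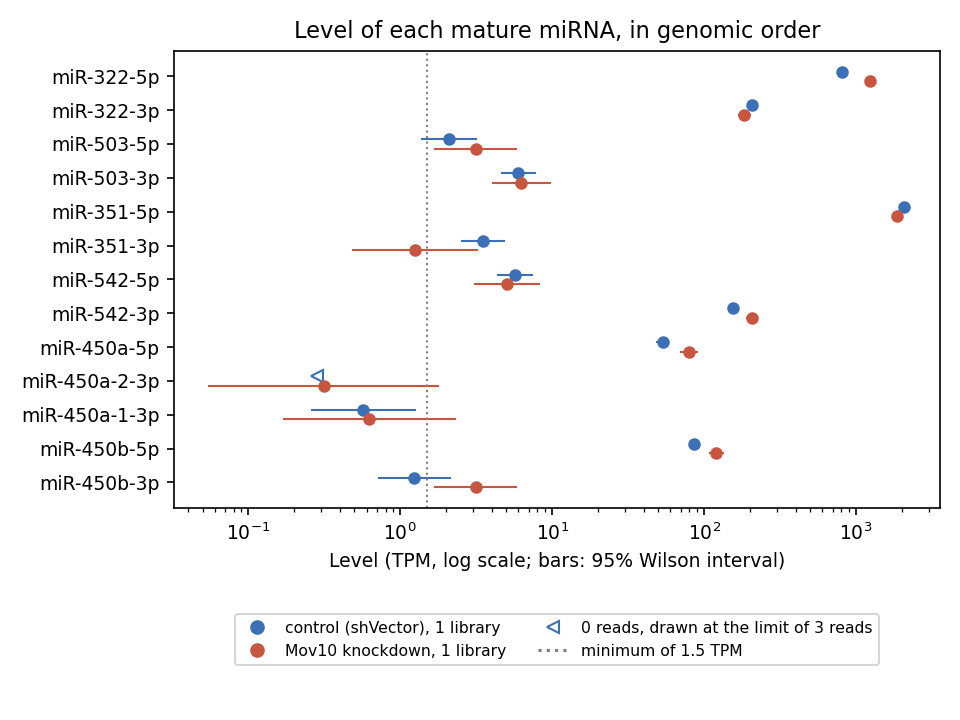
Level of each of the 13 mature miRNAs in genomic order, in TPM on a log scale, in the control library (blue) and the Mov10 knockdown library (red), with 95% Wilson intervals and 1 library per group. miR-351-5p and miR-322-5p lie highest in both libraries, and the open triangle marks the 0 control reads of miR-450a-2-3p at the limit of 3 reads, 0.285 TPM.

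The comparison of the libraries asks how miRNA levels differed after Mov10 knockdown. Before each fold change, 0.1 was added to both TPM values, so that log2 fold changes (knockdown over control) are too small for members with low TPM. Intervals of fold changes are exact 95% intervals of the ratio of levels without the added 0.1 TPM. The p-values are from a two-sided exact binomial test of the reads given the library totals, adjusted over all 1096 miRNAs. Intervals and p-values compare the 2 libraries and not the conditions, and cover counting error only. Of the 13 members, 11 were above 1.5 TPM in at least 1 library, 9 of them in both.

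The leading arms with 561 or more control reads were higher in the knockdown, by log2 fold changes of 0.41 to 0.60, except that of miR-351. miR-322-5p had a log2 fold change of 0.60 (0.54 to 0.65, adjusted p = 9.0e-96, exact binomial test), miR-450a-5p of 0.58 (0.36 to 0.79, adjusted p = 1.3e-06), miR-450b-5p of 0.48 (0.31 to 0.66, adjusted p = 4.5e-07) and miR-542-3p of 0.41 (0.28 to 0.55, adjusted p = 5.6e-09). The intervals of these 4 members overlap one another, but those of miR-322-5p (from 0.544) and miR-542-3p (up to 0.546) only just. Overlap does not show that the changes were equal. miR-322-5p and miR-450b-5p lie at opposite ends of the run. miR-351-5p was lower in the knockdown, at -0.15 (-0.19 to -0.11, adjusted p = 4.2e-12 by the exact binomial test), but came to 0.10 after scaling by the median ratio between the libraries, taken over miRNAs that passed 1.5 TPM in both. Its interval overlaps that of miR-322-3p, at -0.17 (-0.30 to -0.03, adjusted p = 0.043 by the exact binomial test), which came to 0.09 with that scaling and lost its call when each library was scaled to its own miRNA reads (adjusted p = 0.32, exact binomial test). Neither interval overlaps that of any of the 4 higher members.

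Scaling moves all members together, and so sets the sign of the small differences. The median ratio shifted log2 fold changes by about 0.25 and TMM scaling by about 0.22, which left the 4 increases above 0 (0.67 to 0.85 with the median ratio) and put miR-351-5p and miR-322-3p slightly above 0. Under both of these scalings the exact binomial test called miR-351-5p higher in the knockdown and no longer called miR-322-3p. Division of both libraries by 1 total of 30000000 reads, which leaves the difference in depth in the values, shifted well-counted members by about -1.72 and low members by less, because of the 0.1 TPM added, and put all 11 members below 0, from miR-450b-3p at -0.30 to miR-351-3p at -2.51. The gap between miR-322-5p and miR-351-5p, 0.75 on the log2 scale, does not depend on the scaling. Per read of miR-351-5p, 0.391 reads of miR-322-5p were counted in the control (exact 95% interval 0.382 to 0.401) and 0.658 in the knockdown (0.632 to 0.685).

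By the exact binomial test 4 of the 13 members were higher in the knockdown, where 10.7% of all 1096 miRNAs were, and 2 members were lower, where 21.4% of all were. The 2 lower members, miR-351-5p and miR-322-3p, kept that call with neither the median ratio nor TMM. By the rule of over 1.5-fold, miR-322-5p and miR-450b-3p were raised, 2 of 11 members above the minimum, where 15.8% of the 607 miRNAs above the minimum were. miR-351-3p was reduced, 1 of 11 members, where 41.5% of the 607 were. At the threshold, miR-322-5p lay just inside with a fold of 1.51, and miR-450a-5p just outside with 1.49. The other 2 calls rest on few reads, since miR-450b-3p (log2 fold change 1.27, -0.01 to 2.64, adjusted p = 0.13) passed the minimum only in the knockdown and miR-351-3p (-1.42, -3.44 to -0.01, adjusted p = 0.12) only in the control. Neither was separated from counting error by the exact binomial test, except miR-450b-3p with the median ratio (log2 fold change 1.52, adjusted p = 0.048). With 1 common total miR-351-3p passed that test (-2.51, adjusted p = 2.6e-07, exact binomial test). The common total leaves the difference in depth in the test, so this pass cannot tell a change of miR-351-3p from that difference. The median log2 fold change of the 11 members was 0.41, beside -0.37 for all 607 miRNAs, with 7 members above 0 and 4 below. For the remaining 3 members the depth allowed no direction: miR-503-5p was at 0.56 (-0.66 to 1.72), miR-503-3p at 0.06 (-0.74 to 0.81) and miR-542-5p at -0.18 (-1.08 to 0.63), with adjusted p-values of 0.58, 1 and 1 (exact binomial test).

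**Figure D2:**
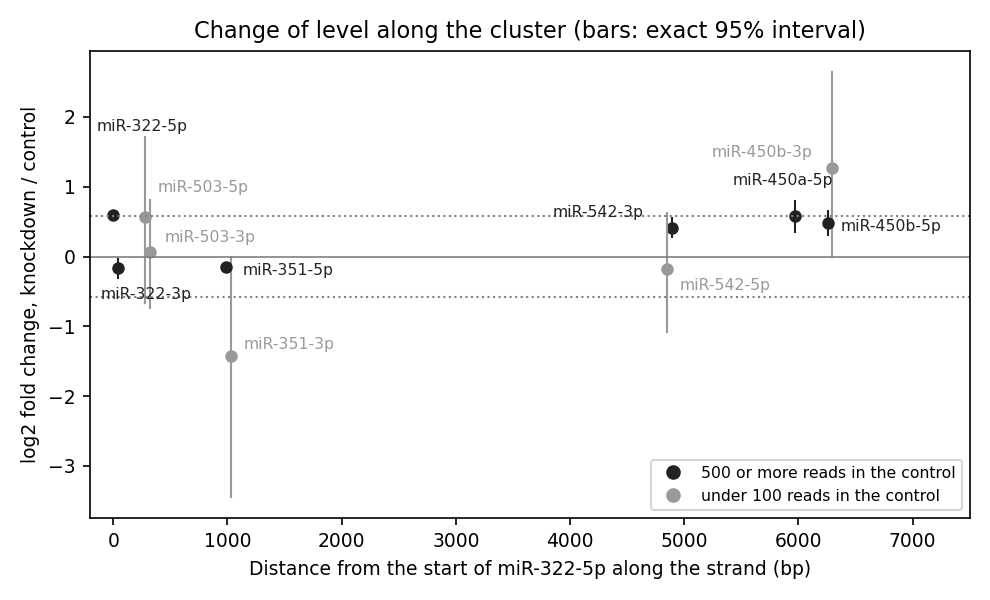
Log2 fold change (knockdown over control, on the TPM + 0.1 scale) of the 11 members above the minimum against the distance of their first base from that of miR-322-5p in bp, with exact 95% intervals and dotted lines at 1.5-fold. The intervals leave out the added 0.1 TPM. miR-450a-5p is drawn at the first of its pair of hairpins. miR-322-5p, miR-542-3p, miR-450a-5p and miR-450b-5p lie between 0.41 and 0.60, and miR-351-5p and miR-322-3p lie at -0.15 and -0.17, which the median ratio scaling turned to 0.10 and 0.09, while 1 common total put all 11 below 0.

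Summed over all members, the cluster had 35747 control reads and 11821 knockdown reads, or 3399 and 3701 TPM. The log2 fold change of the sum was 0.12 (0.09 to 0.15), and it rested on which hairpins were included. Without miR-322 it was -0.06 (-0.09 to -0.02), and without miR-351 it was 0.47 (0.42 to 0.51). The downstream group (miR-542, miR-450a and miR-450b) went from 303 to 416 TPM, a log2 fold change of 0.46 (0.37 to 0.55), and the upstream group (miR-322, miR-503 and miR-351) from 3096 to 3284 TPM, a log2 fold change of 0.09 (0.05 to 0.12). Within the upstream group the hairpins went apart, with miR-322 at 0.47 (0.42 to 0.52) and miR-351 at -0.15 (-0.19 to -0.11), the latter turning above 0 with the median ratio scaling.

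The make-up of the cluster shows the same without any scaling, since it uses only the reads of 1 library at a time. miR-351-5p made up 60.9% of the reads of the cluster in the control (60.3 to 61.4%) and 50.4% in the knockdown (49.5 to 51.3%). miR-322-5p made up 23.8% (23.4 to 24.3%) and 33.1% (32.3 to 34.0%). None of these intervals overlap between the libraries. The shares of miR-542-3p (4.57 and 5.60%), miR-450b-5p (2.54 and 3.26%) and miR-450a-5p (1.57 and 2.15%) were also higher in the knockdown, with intervals that do not overlap, and the share of miR-322-3p was lower (6.08 and 4.97%). A share of the cluster falls when another member rises, so these shares are not independent of one another.

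**Figure D3:**
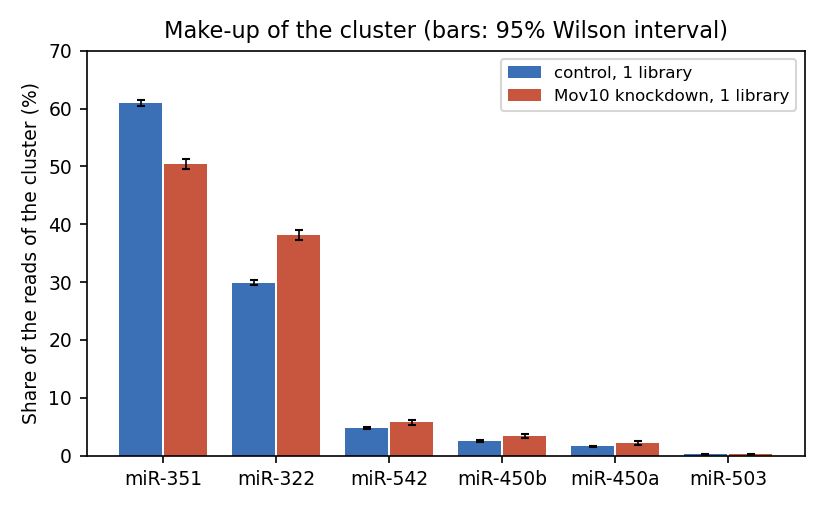
Share of the reads of the cluster on each stem name, both arms summed, in percent, in the control (blue) and the Mov10 knockdown library (red), with 95% Wilson intervals and 1 library per group. The bar of miR-351 is lower in the knockdown (61.0 and 50.4%) and that of miR-322 higher (29.9 and 38.1%).

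The arms of the miR-322 hairpin did not keep 1 ratio. In the control, 79.7% of its reads were on the 5p arm (78.9 to 80.4%), and in the knockdown 86.9% (85.9 to 87.9%). Reads of miR-322-5p per read of miR-322-3p went from 3.92 to 6.66. The log2 odds ratio was 0.76, with an adjusted p of 4.5e-26 by Fisher's exact test over the 316 hairpin names with reads on both arms and at least 10 in all. Both arms come from 1 hairpin and are counted in 1 library, so this difference does not depend on the scaling.

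Such a shift was common among deeply counted hairpins. An adjusted p under 0.05 was given to 61 of the 316 hairpin names, or 19.3%, and to 1 of the 6 names of the cluster. Of the 162 names with at least 1000 reads, 56 (34.6%) passed. By the size of the log2 odds ratio, miR-322 ranked 54th of these 162 names. The median size over the 162 was 0.485. Of the 61 names, 32 moved toward the 5p arm, as miR-322 did, and 29 toward the 3p arm.

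The other 5 names of the cluster kept their leading arm, and no shift passed Fisher's exact test. The 5p arm held 99.83% and 99.93% of the reads of miR-351 (log2 odds ratio 1.19, adjusted p = 0.27), 98.6 and 97.5% of miR-450b (-0.87, adjusted p = 0.47) and 98.9 and 98.8% of miR-450a (-0.25, adjusted p = 1). The 3p arm led in the remaining names. The 5p share of miR-542 was 3.54 and 2.36% (log2 odds ratio -0.57, adjusted p = 0.44), and that of miR-503 was 25.9% (17.8 to 36.1%) and 33.3% (19.2 to 51.2%), with a log2 odds ratio of 0.53 and an adjusted p of 0.82. The minor arm of these names had 3 to 60 reads in a library, beside 588 or more for miR-322, so that small shifts were not detectable in them.

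**Figure D4:**
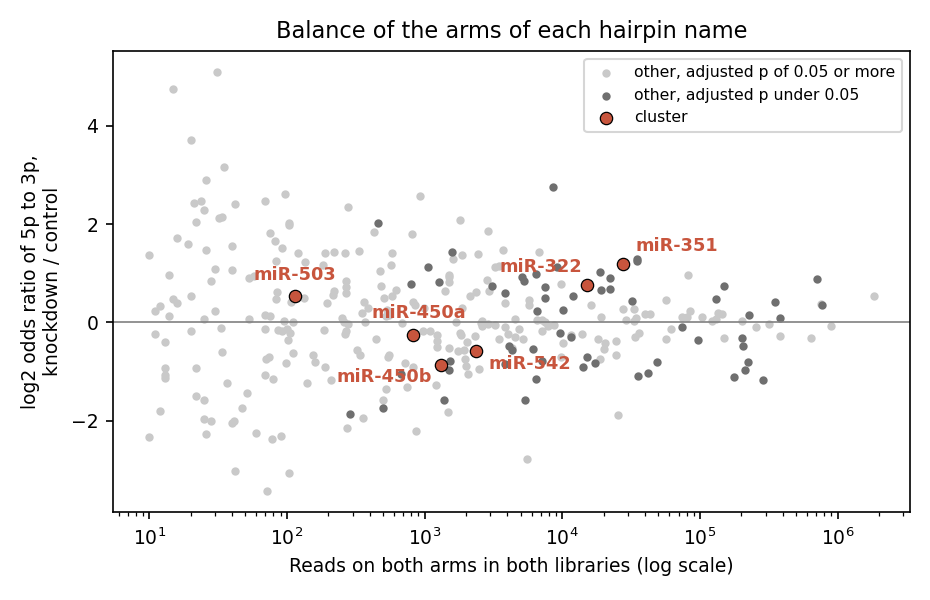
Log2 odds ratio of 5p to 3p reads (knockdown over control) of 316 hairpin names against their reads on both arms in both libraries (log scale), where dark points have an adjusted p under 0.05 by Fisher's exact test and the 6 names of the cluster are in red. miR-322 at 0.76 is the only name of the cluster that passed, and it lies within the spread of the other deeply counted names.

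Members that share a seed with other miRNAs add to a common pool, and here the cluster's part of both pools changed. Of the 1096 miRNAs, 908 had a mature sequence in the RefSeq table, and the pools below are limited to those. miR-322-5p shares AGCAGCA with miR-16-5p, miR-15a-5p, miR-15b-5p, miR-195a-5p and miR-497a-5p. It made up 5.77% of the reads of this pool in the control (5.65 to 5.89%) and 11.5% in the knockdown (11.2 to 11.9%). The pool as a whole went from 14032 to 10648 TPM, a log2 fold change of -0.40.

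miR-16-5p, the main miRNA of the pool, was counted 121868 and 26320 times, with a log2 fold change of -0.49 (-0.51 to -0.47). miR-497a-5p was at -1.05 (-1.17 to -0.94) and miR-195a-5p, which comes from the same locus, at -0.86 (-0.97 to -0.75). These 3 stayed below 0 under each scaling run. miR-15b-5p was at -0.10 (-0.18 to -0.02, adjusted p = 0.055, exact binomial test) and miR-15a-5p at 0.07 (-0.05 to 0.18, adjusted p = 0.52, exact binomial test). miR-322-5p had the highest log2 fold change of the 6, and its interval overlaps that of none of the others.

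miR-351-5p was in the opposite place in its own pool. It shares CCCUGAG with miR-125a-5p, at 5861 and 7040 TPM with a log2 fold change of 0.26 (0.24 to 0.29), and miR-125b-5p, at 4375 and 5707 TPM with 0.38 (0.36 to 0.41). miR-351-5p made up 16.8% of the reads of this pool in the control (16.6 to 17.0%) and 12.8% in the knockdown (12.5 to 13.1%). The pool went from 12304 to 14611 TPM, a log2 fold change of 0.25 that would fall below 0 with 1 common total, as all 3 of its miRNAs did. The seeds of miR-503-5p, miR-542-3p, miR-450a-5p and miR-450b-5p were found in no other of the 908 miRNAs.

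**Figure D5:**
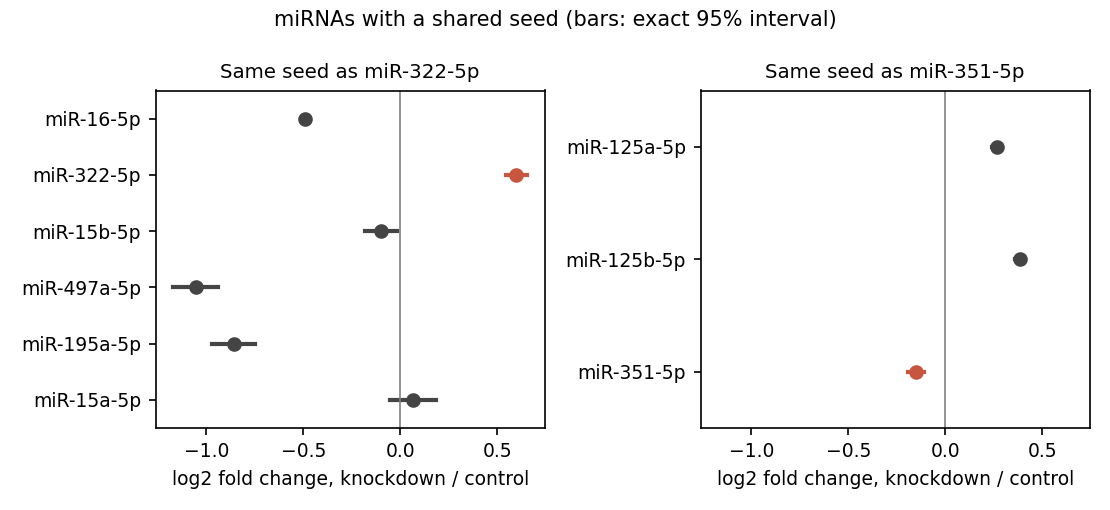
Log2 fold change (knockdown over control, on the TPM + 0.1 scale) of the 6 miRNAs with the seed of miR-322-5p and the 3 with the seed of miR-351-5p, with exact 95% intervals, and the members of the cluster in red. The intervals leave out the added 0.1 TPM. miR-322-5p at 0.60 lies above the other 5, and miR-351-5p at -0.15 (0.10 with the median ratio scaling) lies below both miR-125 miRNAs, and with 1 common total all 9 lie below 0.

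The miRNAs nearest in level, by distance between the libraries' log2(TPM + 0.1) values, were named over the 2 libraries only. Nearest to miR-322-5p were miR-27a-3p (855 and 1417 TPM, distance 0.22), miR-532-5p (806 and 971 TPM, distance 0.34) and miR-148b-3p (1075 and 1102 TPM, distance 0.44). Nearest to miR-351-5p were miR-181c-5p (2151 and 2110 TPM, distance 0.19), miR-199a-5p (2102 and 2333 TPM, distance 0.33) and miR-103-3p (2494 and 2277 TPM, distance 0.40). None of these is a member of the cluster.

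Markers of other cells that the cultures could hold also differed between the libraries. The 8 miRNAs listed for fibroblasts or other mesenchymal cells summed to 27642 TPM in the control and 32257 TPM in the knockdown, with 6 of 8 above 0 in log2 fold change, a median of 0.14 and none past 1.5-fold. The 3 highest were miR-143-3p at 0.13, miR-199a-3p at 0.51 and miR-199b-3p at 0.49, and none of the 8 had 0 reads in either library. The 2 below 0 were miR-214-3p at -0.42 and miR-145a-5p at -0.20. The 12 miRNAs listed for germ or stem cells summed to 154891 and 111668 TPM, with all 12 below 0 and a median of -0.69, and the 3 highest were miR-182-5p at -0.46, miR-183-5p at -0.62 and miR-292a-5p at -0.66. miR-182-5p was at 142065 and 103395 TPM, and 11 of the 12 had at least 3 reads in both libraries of the labelled germ cells, the other being miR-290a-3p with 33 and 1. The 5 blood cell miRNAs summed to 176 and 34.7 TPM and the 2 endothelial miRNAs to 592 and 395 TPM, all 7 below 0. Of these, miR-142a-5p was at -2.45, miR-142a-3p at -2.80, miR-150-5p at -0.34, miR-126a-5p at -0.58 and miR-126a-3p at -0.60. Past 1.5-fold, 9 of the 12 germ or stem cell, 2 of the 5 blood cell and 1 of the 2 endothelial miRNAs were reduced. Among all 607 miRNAs above the minimum, 41.5% were reduced and 15.8% raised, with a median log2 fold change of -0.37. With the median ratio, 7 of the 8 mesenchymal miRNAs, 1 of the 5 blood cell miRNAs and none of the other 14 were above 0. With 1 common total all 27 listed miRNAs were below 0. Levels of the cluster in feeder cells alone were not measured, and the part of feeder cells, of other somatic cells and of library depth in the differences of the cluster was not tested.

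The cluster was compared with other runs of neighbouring miRNA hairpins, taken as hairpins less than 10 kb from the next with at least 5 mature miRNAs over 10 TPM in both libraries. There were 10 such runs. In the cluster, 6 members passed this level, with log2 fold changes from -0.17 to 0.60, a range of 0.76, which was the 3rd smallest of the 10 ranges. The median over its 11 members above the minimum, 0.41, was the 2nd highest, after 0.45 for the let-7d to let-7a-1 run. The Mir17 to Mir92-1 run had the widest range, 2.01, with a median of -0.44. The upper end of that range, 0.56, was miR-19b-3p, and the median was the value of miR-92a-3p. Both also come from hairpins elsewhere, so they are not values of this run alone. Mature miRNAs with hairpins in several places were counted in each run that holds one. The germ and stem cell run Mir290a to Mir295 had a range of 0.91 and a median of -0.82. The log2 fold changes of the cluster's well-counted members thus had a smaller range than those of 7 of the other 9 runs. A range tends to widen with the number of miRNAs, which was 6 in the cluster and 28 in the Mir743 to Mir465 run. Over its 11 members above the minimum, the cluster had a range of 2.69. Runs with at least 5 miRNAs above that minimum were compared in the same way. Only Mir290a to Mir295 (3.01), Mir17 to Mir92-1 (4.44) and Mir379 to Mir3072 (5.91) had a wider range than the cluster. The small range of the cluster thus holds for its well-counted members only. Runs with fewer than 5 miRNAs over 10 TPM in both libraries were left out of the 10. Of those left out, 3 had at least 5 miRNAs above the minimum of 1.5 TPM. Over their miRNAs past 10 TPM, their ranges were 0.07 (Mir770 to Mir136), 0.36 (Mir182 to Mir183) and 0.999 (Mir363 to Mir106a).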

How the data were processed

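The authors extracted small RNA from SPCs, prepared libraries with the TruSeq Small RNA kit, sequenced them on a HiSeq2500, removed rRNA reads, trimmed adaptors and mapped reads to miRBase without mismatch. The deposited tables give, per mature miRNA, its read count and its TPM. The deposited TPM equals reads divided by 1 total per library, whose content is not given in the sources used here. Reads with a mismatch were not counted, and reads of identical mature forms from several hairpins are 1 sum.

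From the counts, log2 fold changes with a pseudocount of 0.1 TPM, exact binomial tests with Benjamini-Hochberg adjustment, exact (Clopper-Pearson) and Wilson 95% intervals and Fisher's exact tests of arms were computed with Python 3.11.15 and scipy 1.17.1. edgeR 4.0.16 gave TMM factors only, since 1 library per group leaves no spread to fit. The scripts were tested on simulated counts. Calls needed over 1.5 TPM in at least 1 library and over 1.5-fold. Sequences and positions are from RefSeq for GRCm38.p6. Named were all members, miRNAs sharing a seed, the 3 nearest in level to miR-322-5p and miR-351-5p, miRNAs within 500 kb and the 3 highest of each marker list. The mesenchymal miRNAs below 0 and miR-290a-3p were named as well. The members and lists were chosen with earlier results of these data known.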

Additional observations from a re-analysis of the deposited data

How the results depend on the processing

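No paired analysis was possible because there is just 1 library on each side, and no replicate could be left out. Members raised over 1.5-fold, 2 as reported, were 4 when scaled by miRNA reads, 6 with the median ratio, 6 with TMM, 0 with 1 common total, 1 with the minimum of 1.5 TPM in both libraries, 1 with a minimum of 10 TPM and 1 at a fold of 2. Members reduced, 1 as reported, were 8 with the common total, under which only 8 passed the minimum, 0 with the minimum in both libraries and 0 with 10 TPM. The median log2 fold change of the members, 0.41, was 0.67 with the median ratio, 0.63 with TMM and -1.41 with the common total. That of the summed cluster, 0.12, was 0.19 with miRNA reads, 0.37 with the median ratio, 0.34 with TMM, -1.60 with the common total, -0.057 without miR-322 and 0.47 without miR-351. With the median ratio miR-322-3p turned to 0.086, miR-351-5p to 0.10 and miR-542-5p to 0.063, and with TMM to 0.052, 0.068 and 0.030. With the common total miR-322-5p turned to -1.12, miR-450a-5p to -1.13, miR-450b-3p to -0.30, miR-450b-5p to -1.23, miR-503-3p to -1.52, miR-503-5p to -0.94 and miR-542-3p to -1.30. The scalings differ by construction in 1 factor per library, and which factor is right was not tested. Arm balances kept their direction with 1 read or no read added to each arm. Their calls could not change, because Fisher's exact test used the counts with no read added. Depth limits the 7 members with fewer than 100 reads.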

Other observations

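The nearest other miRNA genes on chromosome X, within 500 kb of the cluster, are those of the miR-106a to miR-363 cluster, a relative of miR-17 to miR-92. Above 1.5 TPM in at least 1 library, those named for this locus alone were miR-363-3p, miR-106a-5p and miR-20b-5p, all under 10 TPM. miR-363-3p had 70 control and 7 knockdown reads and was at -1.56 in log2 fold change (adjusted p = 0.0067 by the exact binomial test). miR-106a-5p had 38 and 3 reads and was at -1.84 (adjusted p = 0.047, exact binomial test). miR-20b-5p had 61 and 14 reads and was at -0.40 (adjusted p = 0.71, exact binomial test). These 3 stayed below 0 under each scaling run. miR-19b-3p and miR-92a-3p also come from hairpins elsewhere, so their log2 fold changes of 0.56 and -0.44 cannot be assigned to this locus. The other 4 mature miRNAs within 500 kb were below 1.5 TPM in both libraries.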
